A study of Caenorhabditis elegans with 4 samples.

Results

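The mRNAs described here encode the Polo-like kinases (plk-1, plk-2 and plk-3), the Aurora kinases (air-1 and air-2) and the partners of AIR-2 in the chromosomal passenger complex (icp-1, bir-1 and csc-1) of Caenorhabditis elegans. They were taken by name, through their WormBase symbols, with earlier results of these data known. All 8 were found among the 20392 genes of the count table, and all 8 passed the filter on low counts that left 14029 genes. RNA was co-precipitated with CeLIN41, the worm LIN-41 protein, from lysates of young adult animals with beads that bind the FLAG tag (RNA immunoprecipitation, RIP), and the RNA of the precipitate (IP) and of the lysate (input) was sequenced. Every library came from a single genotype. The animals carried the mutant allele lin-41(rrr3) on chromosome I and the rescuing single-copy insertion rrrSi367 on chromosome II, which holds unc-119(+) and a FLAG-GFP-TEV-LIN-41 fusion driven by the lin-41 promoter with the full-length lin-41 3′-UTR. Worms of the 2 biological replicates were grown a different week each, and every replicate gave 1 input and 1 IP. A mock IP was not analysed here, so that binding to the beads or the tag cannot be told apart from binding to CeLIN41.

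Polo-like and Aurora kinases are serine/threonine kinases that drive cell division. They act on centrosome maturation, spindle assembly, the attachment of chromosomes to microtubules and cytokinesis. Aurora A (AIR-1 in worms) works at centrosomes and on spindle microtubules, whereas Aurora B (AIR-2) works on chromosomes and the central spindle as the enzyme of the passenger complex. In that complex the scaffold INCENP (ICP-1) holds the kinase at one end and Survivin (BIR-1) and Borealin (CSC-1) at the other. In worm oocytes AIR-2 directs the release of chromosome cohesion at the meiotic divisions, and the mRNAs of these proteins are supplied by the mother to the early embryo. LIN-41 is known in the worm germ line as an RNA-binding regulator of oocyte growth and of the oocyte-to-embryo transition.

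The libraries held between 33455857 and 40743247 counts. For the mRNA of lin-41 itself, 677 and 543 counts in Input 1 and Input 2 stood against 12953 and 8588 in IP 1 and IP 2, a log2 fold change of 4.90. Counts of the mutant locus and of the transgene are not separated. The inputs contained markers of the germ line and of the soma, as lysates of whole animals imply. The summed level of 5 oocyte genes was 1653 and 1871 CPM (counts scaled to a fixed library total, after the TMM scaling described below), that of 3 intestinal genes 2526 and 1865, and that of 4 sperm genes 1.88 and 1.29, with msp-19 at 0 in every library. All 5 oocyte markers were enriched in the IP, where their summed level was 5184 and 5054, and the 3 intestinal markers were depleted, with 1285 and 1046. One of the 5 oocyte markers is lin-41, and without it the oocyte sum was 1639 and 1861 before and 4762 and 4741 after IP. These other 4 rose unequally, with log2 fold changes of 2.35 for oma-2, 1.10 for rme-2, 1.04 for oma-1 and 0.67 for puf-5. Of the 4 sperm markers only msp-3 could be tested, and it was depleted. Among 3 germ line markers pgl-1 and gld-1 were enriched and glh-1 was depleted. Of the muscle markers unc-54 was enriched and myo-3 depleted, of the neuronal ones rgef-1 was depleted and egl-3 and snb-1 did not pass the threshold, and neither did the hypodermal col-19 and dpy-7. Scaled by library size only, the oocyte markers oma-2 and lin-41 were enriched, and every other marker that passed the threshold was depleted. The part of this shift between tissues in the results below was not tested.

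The counts of IP and input were compared by the quasi-likelihood test of edgeR. The replicate was a block, TMM scaling set the bulk of genes to no change, and p-values were adjusted by Benjamini-Hochberg over all 14029 genes at a threshold of 0.05. Standard errors (SE) are given with the log2 fold changes, which had a median of -0.14 over all genes tested. Of the 8 mRNAs, icp-1, bir-1, plk-3, air-2, air-1 and csc-1 were enriched in the IP and plk-1 was depleted. The change of plk-2 did not pass the threshold. The background was high in both directions, since 32.9% of all genes tested were enriched and 35.4% were depleted, and against this 6 of 8 were enriched and 1 of 8 was depleted. Their log2 fold changes had a median of 1.14. When the libraries were scaled by their total counts only, the shares of all genes were 11.9% enriched and 66.5% depleted, their median was -1.07, and of the 8 mRNAs only icp-1 and bir-1 were enriched while plk-1, plk-2 and csc-1 were depleted. The order of the 8 does not turn on this choice, which shifts all of them by nearly the same amount.

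**Figure D1:**
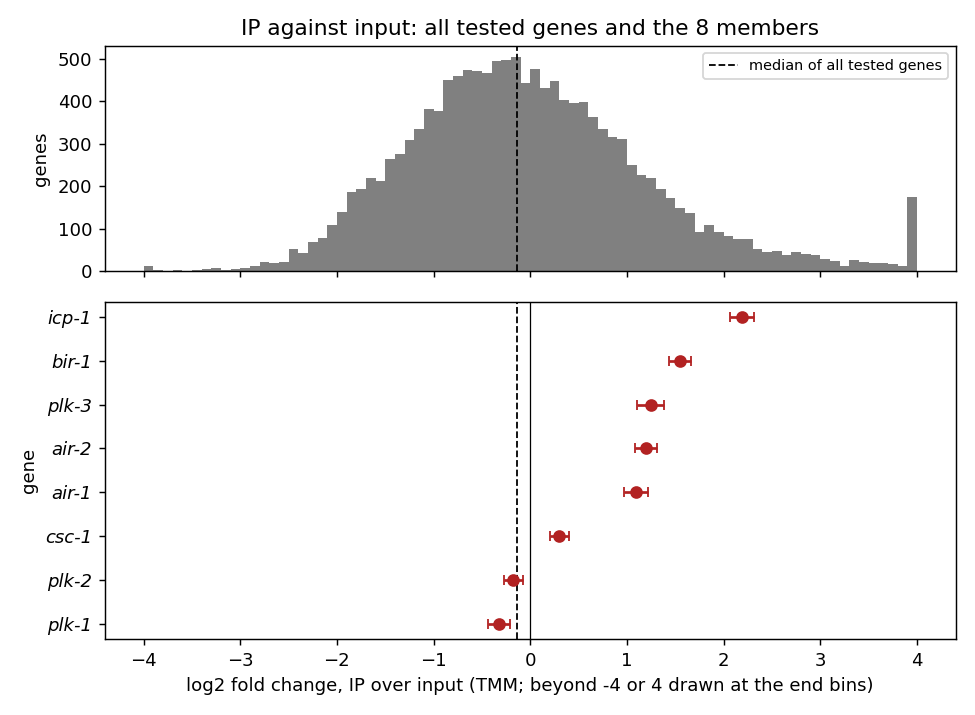
Upper panel, histogram of the log2 fold change of IP over input for the 14029 genes tested (x axis, log2; y axis, number of genes; dashed line, median of -0.14). Lower panel, log2 fold change of the 8 mRNAs with its standard error as the bar. The mRNA of icp-1 lies farthest to the right at 2.19, whereas plk-2 at -0.17 and plk-1 at -0.33 lie close to the median of all genes.

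In the passenger complex, the scaffold mRNA icp-1 (WBGene00002047, chromosome I) showed the largest change of the 8. Input 1 held 4642 counts and Input 2 5545, compared with 13661 in IP 1 and 13248 in IP 2. The log2 fold change was 2.19 (SE 0.13, adjusted p = 6.95e-66 from edgeR, here and below), a 4.56-fold difference. Scaled by library size only it was 1.25 (adjusted p = 2.95e-11). The TMM-scaled value was higher than that of 94.7% of the genes tested.

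The mRNA of bir-1 (WBGene00000249, chromosome V), which encodes the Survivin-like subunit that binds phosphorylated histone H3 in other species, was next. Its inputs held 3808 and 5204 counts and its IPs 7650 and 7492. The log2 fold change was 1.55 (SE 0.11, adjusted p = 1.28e-41 from edgeR), or 2.92-fold, and 0.61 (adjusted p = 0.000801) when scaled by library size only.

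The Borealin-like csc-1 (WBGene00000804, chromosome II) changed little by comparison. Its inputs held 4354 and 4832 counts and its IPs 3590 and 3019, so that the counts were lower in both IPs, whereas after TMM scaling its level was higher in both. The log2 fold change was 0.30 (SE 0.10, adjusted p = 0.00526 from edgeR), a 1.23-fold difference. This call depends on the scaling. With library size only the change was -0.63 (adjusted p = 0.0004 from edgeR), in the opposite direction. The median of all genes tested was then -1.07, so that csc-1 lay above the median with either scaling. With TMM scaling 64.1% of the genes tested were lower than csc-1. Leaving out an input, in fits without the block, kept the size of the change but not the call. It was 0.30 without Input replicate 1 and 0.33 without Input replicate 2.

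Of the Aurora kinases, air-2 (WBGene00000099, chromosome I), the enzyme of the passenger complex, had inputs of 5052 and 6728 counts and IPs of 8306 and 7263. Input 2 and IP 2 were close. The log2 fold change was 1.20 (SE 0.11, adjusted p = 4.3e-25 from edgeR). The centrosomal kinase mRNA air-1 (WBGene00000098, chromosome V) was similar, with inputs of 8633 and 11055 counts and IPs of 12013 and 12245. Its log2 fold change was 1.09 (SE 0.12, adjusted p = 5.78e-18 from edgeR). The values of air-1 and air-2 correspond to 2.13-fold and 2.29-fold. Scaled by library size only, neither passed the threshold: air-2 was at 0.26 (adjusted p = 0.165 from edgeR) and air-1 at 0.16 (adjusted p = 0.423). Counted per library total, IP 2 held 1.03 times the air-2 counts of Input 2, with an exact 95% interval (Clopper-Pearson, counting error only) of 0.997 to 1.07, compared with 1.39 (1.35 to 1.44) in replicate 1. In the later annotation WBcel235, 2 genes for small nucleolar RNAs lie within air-1 on the same strand; their own counts were not analysed here.

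The Polo-like kinases went different ways. The mRNA of plk-3 (WBGene00004044, chromosome IV), a relative of less well described function, was counted 12960 and 16093 times in Input 1 and Input 2, against 22433 and 17741 times in IP 1 and IP 2. Of the IPs, IP 1 stood above IP 2. The log2 fold change was 1.25 (SE 0.14, adjusted p = 8.63e-19 from edgeR), or 2.37-fold. Scaled by library size only it was 0.31 and did not pass the threshold (adjusted p = 0.122).

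The mRNA of plk-1 (WBGene00004042, chromosome III), which encodes the main mitotic Polo kinase with roles in meiotic divisions, centrosome maturation and embryonic polarity, was the only one depleted with TMM scaling. Its inputs held 11482 and 13388 counts, but its IPs only 6131 and 5407. Neither IP approached an input in counts, but the TMM-scaled difference was small, with a log2 fold change of -0.33 (SE 0.11, adjusted p = 0.00779 from edgeR), a level 1.25-fold lower. This value lay near the middle of all genes, since 43.1% of the genes tested were lower. The change kept its direction but did not pass the threshold with DESeq2 (-0.24, adjusted p = 0.0611), nor in edgeR fits without the block that left out Input replicate 1 (-0.37, adjusted p = 0.0706) or Input replicate 2 (-0.27, adjusted p = 0.186). With library size only it was far past the threshold, at -1.26 (adjusted p = 2.78e-11 from edgeR), where the median of all genes tested was -1.07.

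The close paralog plk-2 (WBGene00004043, chromosome I), which acts at pairing centres in meiotic prophase, had inputs of 4114 and 4978 counts and IPs of 2467 and 2209. The counts were thus lower in both IPs, as for plk-1, and the log2 fold change was -0.17 (SE 0.10, adjusted p = 0.118 from edgeR). It passed the threshold only with library size only, at -1.11 (adjusted p = 3.45e-10), and when all genes had to reach 10 counts in every library, at -0.26 (adjusted p = 0.00905). With library size only the median of all genes tested was -1.07, so that plk-2 lay near the middle of all genes. With TMM scaling 48.5% of the genes tested were lower than plk-2. No source used here says how reads that match both plk-1 and plk-2 were assigned, so that their values may not be fully separate.

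Levels of different mRNAs were compared per length, as TMM-scaled CPM per kilobase of the gene model (mean ± SD, n = 2). In the inputs air-1 at 138 ± 15.7 and plk-3 at 133 ± 12.2 were the highest. Next came plk-1 at 107 ± 5.10, air-2 at 105 ± 14.8, csc-1 at 101 ± 1.26 and bir-1 at 94.2 ± 15.0, and the lowest were icp-1 at 47.5 ± 3.07 and plk-2 at 42.4 ± 3.12. Within each of these 3 tiers neighbouring means differed by less than the sum of their SDs. Within single inputs, however, air-1 was above plk-3, plk-1 above csc-1 and icp-1 above plk-2 in both replicates. The place of bir-1 depends on its gene model, which has 954 bases in the count table but 673 exonic bases in WBcel235. With lengths from the later annotation its input level was 134, compared with 147 for air-1 and 142 for plk-3. In whole animals a lower level can stem from fewer cells that hold an mRNA or from less of it per cell, and these cannot be told apart.

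In the IPs the order was another. The level was 316 ± 26.9 for plk-3, 295 ± 27.8 for air-1, 274 ± 18.1 for bir-1, 239 ± 3.37 for air-2 and 216 ± 12.8 for icp-1 (SD, n = 2). With lengths from the later annotation bir-1 came first in the IPs, at 388, compared with 336 for plk-3 and 313 for air-1. With the lengths of the count table the IP level was 124 ± 5.18 for csc-1, 85.7 ± 0.694 for plk-1 and 37.5 ± 0.0994 for plk-2. The mRNA of icp-1 thus moved from below that of plk-1 and csc-1 in the inputs to above both in the IPs, in each replicate. The 5 mRNAs with the highest IP levels are those of both Aurora kinases, plk-3, bir-1 and icp-1, and plk-2 remained the lowest of the 8 in inputs and IPs alike.

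**Figure D2:**
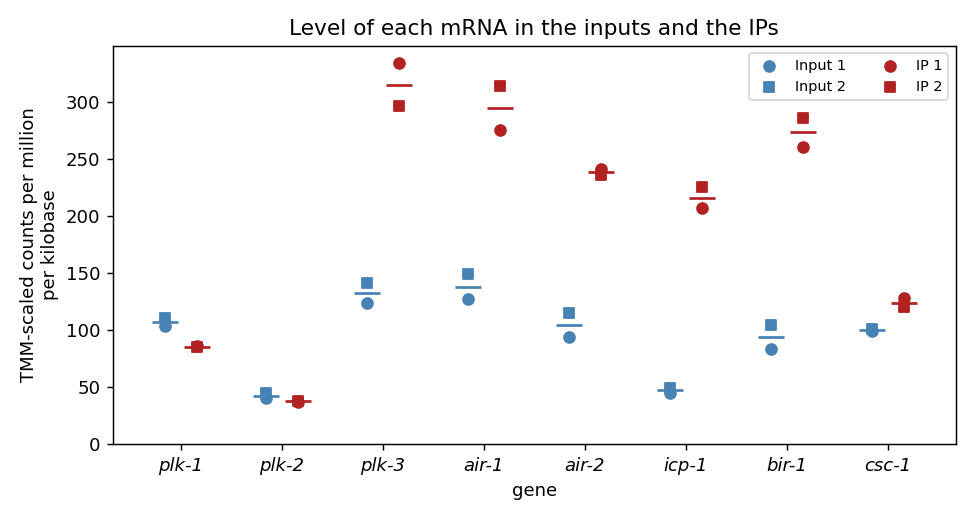
Level of each mRNA (y axis, TMM-scaled CPM per kilobase, starting at 0) in the 2 inputs (blue) and the 2 IPs (red), with circles for replicate 1, squares for replicate 2 and a line at the mean. For icp-1 the inputs lie at 45.3 and 49.7 and the IPs at 207 and 225, whereas for plk-2 the inputs at 40.2 and 44.6 lie slightly above the IPs at 37.5 and 37.6.

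IP enrichment was also computed by the steps of the study's methods, as the difference between IP and input of one replicate on a log2 scale after quantile normalization, which forces all libraries to the same distribution. The log2 IP enrichment in replicates 1 and 2 was 1.36 and 1.41 for icp-1 and 0.89 and 0.70 for bir-1. It was 0.65 and 0.20 for plk-3, 0.54 and 0.24 for air-2 and 0.22 and 0.20 for air-1. It was negative in both replicates for csc-1, at -0.33 and -0.33, for plk-2, at -0.73 and -0.78, and for plk-1, at -1.10 and -1.17. All 8 mRNAs had the same sign in both replicates. The replicates differed most for plk-3 (SD of 0.32 around a mean of 0.42) and air-2 (0.22 around 0.39). The SD was 0.14 around 0.79 for bir-1, and for the other 5 it was at most 0.05, including air-1 (mean 0.21) and csc-1 (mean -0.33). The sign of csc-1 on this scale is opposite to that of its TMM-scaled change. Quantile normalization can draw replicates together, and with library size only the SDs of plk-1, plk-2 and csc-1 were between 0.16 and 0.19.

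**Figure D3:**
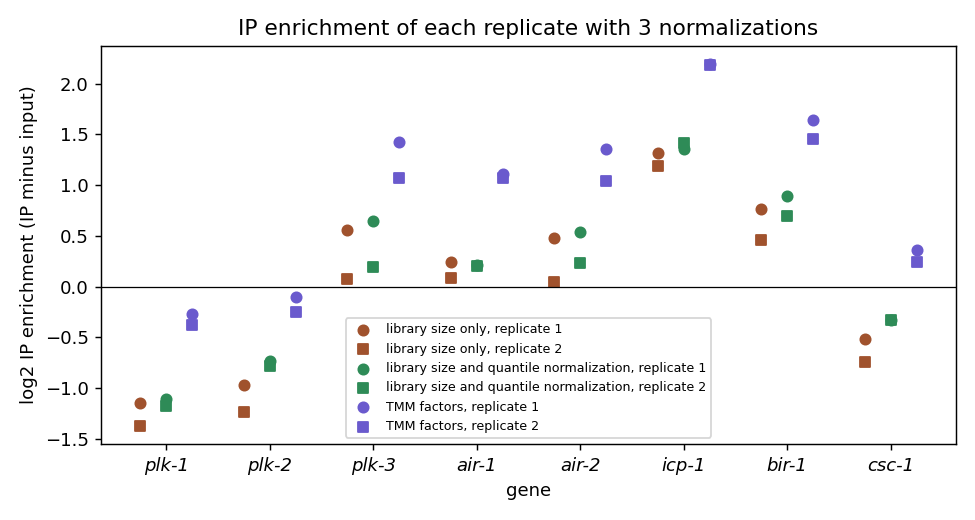
Log2 IP enrichment (y axis, IP minus input of one replicate, pseudocount of 8) of the 8 mRNAs with library size only (brown), with library size and quantile normalization (green) and with TMM factors (purple). Circles are replicate 1 and squares replicate 2. The whole set shifts upwards with TMM factors: csc-1 passes from a mean of -0.33 with quantile normalization to 0.30, while icp-1 and bir-1 stay above 0 and plk-1 and plk-2 below 0 with all 3.

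To remove the scaling altogether, the counts of 2 mRNAs in one library were divided by each other, and this ratio was compared between IP and input. The 10 pairs were picked after the values were known, and with 2 replicates the differences were not tested (an exact permutation test of 2 against 2 cannot go below a two-sided p of 0.333). Intervals are 95% intervals that cover counting error only. Within the passenger complex, icp-1 had 1.07 and 1.15 counts per count of csc-1 in Input 1 and Input 2, but 3.81 and 4.39 in IP 1 and IP 2. The scaffold mRNA thus gained 3.69-fold over the Borealin mRNA, with log2 changes of 1.84 (1.76 to 1.92) and 1.94 (1.86 to 2.01). The ratio of bir-1 to csc-1 rose from 0.875 and 1.08 to 2.13 and 2.48, a mean log2 change of 1.24 ± 0.06 (SD, n = 2). The mRNA of the kinase air-2 gained less over csc-1, at 0.89 ± 0.15, and icp-1 gained over air-2 by 0.99 ± 0.22 and over bir-1 by 0.64 ± 0.13. Of the 4 mRNAs of the complex, icp-1 was therefore recovered most and csc-1 least in both replicates, at input levels per length that were lowest for icp-1.

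Among the kinases the contrast was between plk-3 and its relatives. There were 1.13 and 1.20 counts of plk-3 per count of plk-1 in the inputs, compared with IP ratios of 3.66 and 3.28, a mean log2 change of 1.57 ± 0.18 (SD, n = 2). Relative to plk-2 it was 1.42 ± 0.15. In contrast, the ratio of plk-2 to plk-1 was nearly the same in the 4 libraries, with inputs at 0.358 and 0.372 and IPs at 0.402 and 0.409. Its log2 change of 0.15 ± 0.02 was small but lay above 0 in each replicate beyond counting error (0.08 to 0.25 and 0.05 to 0.22). The ratio of air-2 to air-1 did not move in one direction, with log2 changes of 0.24 (0.18 to 0.30) in replicate 1 and -0.04 (-0.10 to 0.02) in replicate 2.

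**Figure D4:**
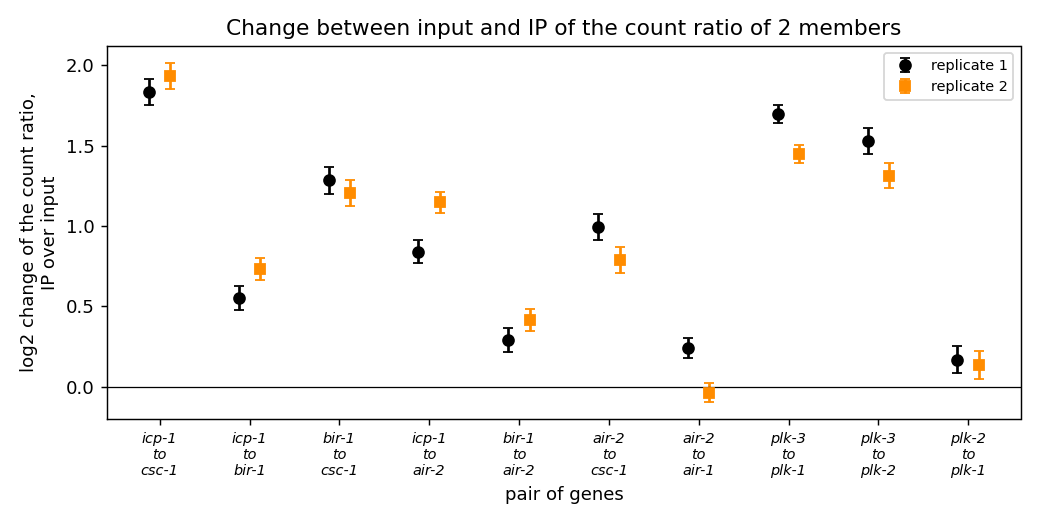
Log2 change between input and IP of the count ratio of 2 mRNAs (y axis) for 10 pairs (x axis), with replicate 1 in black, replicate 2 in orange and 95% counting intervals as bars. The pairs icp-1 to csc-1 and plk-3 to plk-1 change most, at means of 1.89 and 1.57, and air-2 to air-1 and plk-2 to plk-1 lie near 0.

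The 8 mRNAs differ in the annotated length of the 3′-UTR, the region through which CeLIN41 is known to bind several targets. The study also reports binding through the 5′-UTR of lin-29A. Neither 5′-UTRs nor coding sequences of the 8 were compared here. In WBcel235, which postdates the gene models of the count table, the longest 3′-UTR is 342 bases for plk-1 and 344 for air-1, 278 for plk-2, 203 for plk-3 and icp-1, 192 for air-2, 96 for bir-1 and 73 for csc-1. Over the 13139 coding genes tested that have such a region in the annotation, the median is 147 bases. Among the 8 the longest of these regions belong to air-1, which was enriched, and plk-1, which was depleted. The shortest belong to csc-1 and bir-1, at log2 fold changes of 0.30 and 1.55. A relation between the length of the 3′-UTR and the change in the IP was not tested, and the sequences of these regions were not analysed here.

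By Euclidean distance over the 4 normalized log2 values, the gene nearest to icp-1 among all tested was got-2.1 (distance 0.133), followed in the other cases by asd-1 for bir-1 (0.149), sahd-1 for csc-1 (0.0872), wdr-20 for air-2 (0.137), deps-1 for air-1 (0.0962), mex-1 for plk-3 (0.248), rpb-10 for plk-2 (0.0725) and skr-2 for plk-1 (0.0935). With only 4 libraries this measure reflects the level and the enrichment of a gene and nothing more.

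The genes that act with these kinases were grouped into 5 lists with 63 members, all of which were tested. Of these, 40 were enriched, 15 were depleted and 8 were neither, compared with the background of 32.9% and 35.4%. Their median log2 fold change was 0.40, below that of the 8 kinase and passenger mRNAs and above that of all genes tested. The 8 genes and the 5 lists were chosen with earlier results of these data known, so that these comparisons only describe. Of the 63, 8 were enriched and 39 depleted with library size only, compared with 11.9% and 66.5% of all genes tested.

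Among 10 activators, recruiters and opponents of the kinases, 7 were enriched and 1 was depleted, with a median log2 fold change of 0.48. The highest were spat-1, the Bora homolog that promotes activation of PLK-1, at 1.59 (inputs of 781 and 868 counts, IPs of 1630 and 1269), and lab-1, which opposes AIR-2 on meiotic chromosomes, at 1.05. The AAA ATPase mRNA cdc-48.3, whose product restrains AIR-2, was the only one depleted, at -1.01. Of 12 centrosome and centriole genes 8 were enriched and 2 were depleted (median 0.41). The pericentriolar anchor pcmd-1 at 1.89 and the microtubule nucleation factor mzt-1 at 1.43 were the highest, whereas spd-5, the scaffold that PLK-1 phosphorylates, was at -0.81 and the gamma-tubulin complex subunit gip-1 at -0.74. Values in this paragraph and the next are log2 fold changes from edgeR with TMM scaling. Each gene named in them passed the threshold, except where stated. The background for the counts of each list was 32.9% of all genes tested enriched and 35.4% depleted with TMM scaling.

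Of 10 genes of the central spindle and of cytokinesis, 6 were enriched and 4 were depleted (median 0.43). The kinesin mRNA zen-4, whose product is a substrate of AIR-2 at the central spindle, rose from input counts of 6058 and 7993 to IP counts of 24380 and 28338, at 2.70, and spd-1, a microtubule bundling protein, was at 1.40. The formin cyk-1 was at -0.60 and the myosin nmy-2 at -0.46. In the kinetochore and checkpoint list 12 of 22 were enriched and 8 were depleted (median 0.25). By far its highest value was that of mis-12, a core subunit of the kinetochore, with input counts of 3319 and 4147 and IP counts of 148770 and 236064, at 6.44 (SE 0.25). The next highest was kbp-4 of the NDC-80 complex at 1.17, and hcp-2, a CENP-F-like protein, at -1.19 and rod-1 of the RZZ complex at -0.997 were the lowest. Among the 9 pairing centre and nuclear envelope partners of PLK-2, 7 were enriched (median 0.47) and 2, zyg-12 and chk-2, did not pass the threshold. The pairing centre protein mRNA zim-1 was at 3.31 and hal-2, which is needed for synapsis, at 1.38. With library size only, the numbers enriched and depleted were 1 and 5 for the activators and opponents, 2 and 7 for the centrosome, 2 and 7 for the central spindle, 1 and 15 for the kinetochore and 2 and 5 for the partners of PLK-2. Over all genes tested, 11.9% were enriched and 66.5% depleted with this scaling. Of the genes named in both paragraphs that had passed the threshold, lab-1 (0.11, adjusted p = 0.546 from edgeR) and kbp-4 (0.24, adjusted p = 0.198) then no longer did.

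**Figure D5:**
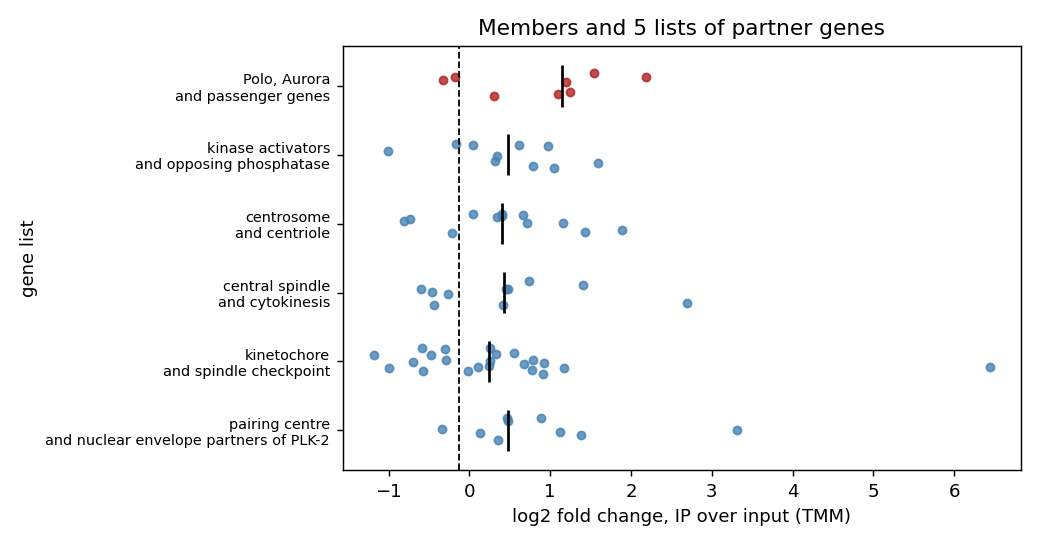
Log2 fold change of IP over input with TMM scaling (x axis) for the 8 kinase and passenger mRNAs (red) and 5 lists of partner genes (blue), 1 point per gene with a line at the median of each list and a dashed line at the median of all genes tested. The medians of the lists lie between 0.25 and 0.48, that of the 8 mRNAs at 1.14, and the points far to the right are mis-12 at 6.44, zim-1 at 3.31 and zen-4 at 2.70.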

How the data were processed

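The authors deposited raw whole-number counts of reads on WormBase WS220 gene models (assembly ce10) for stranded mRNA libraries, beside each model's length. Neither aligner nor counting program is named in the sources used here. In the second file deposited by the authors, log2 values had been scaled to library size, log2-transformed with a pseudocount of 8 and quantile-normalized. Repeating these steps on the counts gave all 81568 values to within 1e-06.

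Counts were tested in R 4.3.3 with edgeR 4.0.16, using filterByExpr by fraction, TMM scaling, a replicate block and a Benjamini-Hochberg threshold of 0.05. The pairing of IP and input follows the study's methods and the weeks of growth. The difference between replicates in the IP and in the input had r = 0.355 across 14029 genes, which are not independent replicates. With the block, 1 residual degree of freedom is left. The spread was pooled over all genes, so adjusted p-values assume that genes of similar level vary alike. Standard errors are derived from the unshrunken fold change and the F statistic. On simulated counts with 200 genes changed by a log2 value of 2, edgeR recovered 190 with 7 false calls among 13619 genes. DESeq2 1.42.0 recovered 158 with none. In the real libraries edgeR called 4611 genes enriched and 4960 depleted. Recovery at such numbers, or with another scaling, was not tested.

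The 8 genes and the 5 lists were chosen with earlier results of these data known. Named list genes are the 2 highest and 2 lowest by log2 fold change among those past the threshold with the same sign of IP enrichment in both replicates. In addition, zyg-12 and chk-2 were named after their values were seen. Each kinase or passenger gene has its nearest gene named, and the bait lin-41 and the marker genes are also named. Alternatives were DESeq2, no replicate block, library size only, RLE factors, at least 10 counts in every library, no filter, each library left out (without the block), and other normalizations and pseudocounts for the IP enrichment. Chromosomes, 3′-UTR lengths and symbols came from Ensembl release 115 (WBcel235) by gene identifier, and coordinates are left out because ce10 is an earlier assembly. Stem-loop scans were not run, because no sequences were read. The remaining steps ran in Python 3.11.15 (scipy 1.17.1, pandas 2.3.3 and matplotlib 3.10.9).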

Additional observations from a re-analysis of the deposited data

How the results depend on the processing

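Scaling mattered most. With library size only, 1670 genes were enriched and 9333 depleted in place of 4611 and 4960. Of the 8 mRNAs, 2 were enriched and 3 depleted in place of 6 and 1. The change of csc-1 reversed to -0.63, above the median of -1.07 over all genes tested. DESeq2 called 3294 genes depleted. The number of the 8 that were depleted was 0 with DESeq2 (1 at an unadjusted p under 0.05), 2 with at least 10 counts in every library, and between 0 and 1 with single libraries left out (0 without Input replicate 1 and 0 without Input replicate 2, where 1 and 0 had an unadjusted p under 0.05 in edgeR). With no replicate block 4258 genes were enriched and 4333 depleted, and no call of the 8 changed. The mean log2 IP enrichment with library size only was -1.26 for plk-1, -1.10 for plk-2, 0.16 for air-1, 1.25 for icp-1, 0.61 for bir-1 and -0.63 for csc-1. With TMM factors it was -0.32 for plk-1, -0.17 for plk-2, 1.25 for plk-3, 1.09 for air-1, 1.19 for air-2, 2.19 for icp-1 and 1.55 for bir-1, and csc-1 reversed to 0.30. A pseudocount of 1 moved none beyond the replicate SD. The authors' values gave the same enrichment, which was fixed in advance because the steps used here rebuild those values. With library size only the input levels per kilobase were 148 for plk-1, 58.5 for plk-2, 184 for plk-3, 191 for air-1, 145 for air-2, 65.6 for icp-1, 130 for bir-1 and 139 for csc-1. With exon lengths of the later annotation, an alternative chosen after seeing the data, bir-1 was at 134 and csc-1 at 112. The stem-loop alternatives were not run. Each of the 8 mRNAs had at least 2209 counts in every library.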
